A study of Manihot esculenta with 32 samples.

Results

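The leaf blade and the shoot apical meristem (SAM) of cassava (Manihot esculenta) were compared in 6 RNA-seq libraries, 3 of leaf and 3 of SAM, chosen by their titles out of 32 libraries that covered 11 tissue/organ types. Both tissues came from 3-month-old plants of the cultivar TME 204 kept in a glasshouse. No mutant, transgene or treatment separated the groups, which differed in the organ sampled. Each leaf replicate was a separate biological sample, and each SAM replicate was a pool of 6 hand-dissected meristems, so that differences between single meristems were averaged within a library. The tissues also differed in handling. SAM RNA was isolated with the Arcturus PicoPure kit and leaf RNA with the Spectrum Plant Total RNA kit, and SAM libraries were started from less RNA with less fragmentation enzyme and less random primer. The organ and this handling cannot be told apart in the leaf and SAM libraries. Values from 2 further pairs of tissues are given at the end, without a test of the handling.

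The mature leaf blade is the main photosynthetic organ of the plant. Its mesophyll cells have left the cell cycle and carry chloroplasts, where the photosystems capture light and the Calvin cycle fixes carbon dioxide with the enzyme Rubisco. The SAM is a small dome of dividing cells at the tip of the shoot that produces leaves and stem. In Arabidopsis thaliana and maize, class I KNOX homeobox genes are active in the meristem and are switched off where a leaf is initiated, while class II KNOX genes are active in older organs. A dissected apex also holds the youngest leaf primordia, so genes of early leaf growth are measured together with those of the dome.

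Expression was measured in FPKM, the number of mapped fragments scaled by transcript length and by library size, at 38593 loci, of which 32732 carried a gene name. Fragments assigned to named loci numbered 9569564, 15212032 and 8415903 in leaf libraries 1, 2 and 3, and 6616068, 7024089 and 5398488 in SAM libraries 1, 2 and 3. At a typical locus 1 FPKM corresponded to between 9.53 and 18.6 fragments. Between 21041 and 21505 named loci reached 1 FPKM in each of the 6 libraries. Spearman's rho across loci was 0.946 to 0.968 within leaf, 0.979 to 0.982 within SAM and 0.543 to 0.605 between the tissues. The biological coefficient of variation was 0.306 in leaf and 0.154 in SAM, and leaf library 1 stood apart in heat shock genes, described below. Summed FPKM was 1595334 to 1665591 in leaf and 908021 to 1019328 in SAM, and the 10 loci with the highest level held 26.3 to 35.4% of it in leaf and 13.4 to 26.1% in SAM.

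A locus was tested when its mean reached 1 FPKM in leaf or SAM, and was called when the edgeR quasi-likelihood test on fragment counts gave an adjusted p (Benjamini-Hochberg) under 0.05 and mean FPKM differed more than 4-fold. Of 23934 loci tested, 3410 (14.2%) were up-regulated in SAM and 3904 (16.3%) in leaf, 30.6% together. Libraries of the tissues did not overlap in FPKM at 7163 of the 7314 called loci, and at 16588 (69.3%) of all tested loci. SAM held 46.6% of the calls. After each library was rescaled to the same FPKM sum it held 64.3% (5029 in SAM and 2787 in leaf), and the median log2 fold change of all tested loci moved from 0.05 to 0.70. Leaf calls were most common among strongly expressed genes. Among the 5984 loci with the highest level 27.6% were up-regulated in leaf and 11.8% in SAM. In bulk tissue, fewer cells of a type and less RNA per cell cannot be told apart, in these counts and in every gene below.

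**Figure D1:**
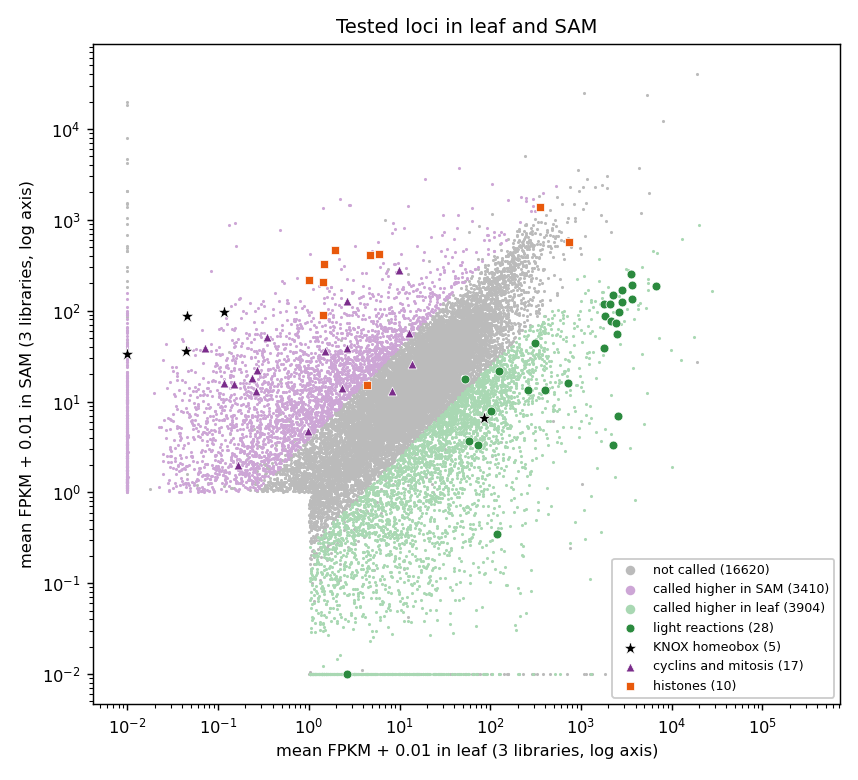
Mean FPKM of each tested locus in leaf (x axis) and in SAM (y axis), 3 libraries each, on log axes after adding 0.01. Colored points are the 3410 loci called up-regulated in SAM and the 3904 called in leaf; the leaf calls reach further into the highest levels, where Rubisco small chain lies at 27839 FPKM in leaf and 167 in SAM.

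Few genes were fully switched between the tissues. There were 11655 loci at 10 FPKM or more in every SAM library. Of these, 439 were under 1 FPKM in every leaf library and 60 had no fragment there. In the other direction there were 11686 loci, of which 295 were under 1 FPKM in every SAM library and 56 had no fragment there.

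The annotated genes with the largest difference toward SAM included a gene of the lipid transfer protein superfamily, a cytochrome P450 and regulators of meristem and organ development. Positions are those of the merged loci in the files, on the AM560-2 v6.1 assembly. Manes.01G078300 (chromosome 1, 20413406 to 20414245) is annotated to a superfamily of bifunctional inhibitors, lipid transfer proteins and seed storage albumins, without saying which of these it encodes. It was at 0, 0.123 and 0.242 FPKM in leaf and at 957, 916 and 789 in SAM. No SAM library came near a leaf library. Leaf held 2 fragments of it in all, which gave a ratio of 8317 with an exact 95% interval from 2302 to 68684, and the log2 fold change was 12.82 ± 1.15 (SE, adjusted p = 3.38e-10 by edgeR's quasi-likelihood test).

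Manes.12G142700 (chromosome 12, 29610280 to 29612634) encodes CYP78A7, a cytochrome P450 of a family that promotes organ growth in Arabidopsis. It was at 0.179, 0.0419 and 0 FPKM in leaf and at 365, 245 and 218 in SAM. Its log2 fold change was 11.91 ± 0.58, and the ratio was 4293 (exact interval 1468 to 20819). A glucanase of family 17, Manes.05G125000 (chromosome 5, 14977700 to 14979610), a type of enzyme that acts on beta-glucans of the cell wall, had no fragment in any leaf library. Its SAM values were 56.0, 73.4 and 47.1 FPKM, at least 901-fold higher when leaf is set to 3 fragments over its libraries. The auxin-responsive SAUR gene Manes.04G082100 (chromosome 4, 21948431 to 21948746) was also without a fragment in leaf and at 79.9, 39.1 and 63.6 FPKM in SAM, at least 71.6-fold higher. The DUF640 gene Manes.09G148200 and the KNOX gene Manes.17G027300 complete the set and are described with their families.

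Among the annotated genes with the largest difference toward leaf were 2 of carbon dioxide supply and 1 of its fixation, beside a B-box gene, an EF-hand gene and a heat shock protein. Manes.15G167500 (chromosome 15, 13557507 to 13561764) encodes carbonic anhydrase 1, which interconverts carbon dioxide and bicarbonate. It was at 9841, 9860.2 and 10377 FPKM in leaf and at 0.998, 0.496 and 4.23 in SAM. The mean ratio was 5253 and the log2 fold change was -12.40 ± 0.83 (adjusted p = 1.66e-12, edgeR). A second carbonic anhydrase 1 gene, Manes.17G116800 (chromosome 17, 25753957 to 25759907), was at 3012, 2738 and 6167 FPKM in leaf and at 0.703, 0.116 and 1.65 in SAM. Both genes were far apart in every pair of libraries.

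Glyceraldehyde-3-phosphate dehydrogenase B, Manes.05G125200 (chromosome 5, 14993512 to 14996390), the Calvin cycle enzyme that makes triose phosphate, was at 1166, 1682 and 2194 FPKM in leaf. In SAM it was at 0.166, 0.166 and 0.739, and the log2 fold change was -12.17 ± 0.48. A gene with B-box and CCT domains, Manes.05G137600 (chromosome 5, 18986996 to 18988735), of a family that takes part in light and day-length responses in Arabidopsis, was at 316, 293 and 229 FPKM in leaf and at 0, 0 and 0.216 in SAM. An EF-hand gene, Manes.04G102800 (chromosome 4, 23856904 to 23857619), of a calcium-binding family, was at 1849, 929.7 and 4272 FPKM in leaf and at 0.703, 0.69 and 3.06 in SAM. The leading genes of both directions were chosen for a large ratio and no overlap between libraries, so their separation follows from that choice. The EF-hand gene varied widely within leaf, from 929.7 to 4272 FPKM. Heat shock protein 21 (Manes.01G042200) had the largest ratio of all annotated genes toward leaf, but this came from leaf library 1.

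Further genes were grouped by words in their annotation. Annotation was at hand for 4476 named loci, taken from gene tables in which the study lists genes that differ between other pairs of its tissues, so list members were selected for differing somewhere in the plant. Annotated loci were called more often than loci as a whole: of 3495 tested, 905 (25.9%) were up-regulated in SAM and 1120 (32%) in leaf, and their median log2 fold change was -0.30. One of these tables compared leaf with fibrous root and used the leaf libraries. Among the 2523 loci listed in another of the tables, 29.4% were up-regulated in SAM and 24.8% in leaf. Some of these may also stand in the leaf and fibrous root table, so they are not free of selection on the leaf libraries. The counts for each list are to be read against these shares.

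**Figure D2:**
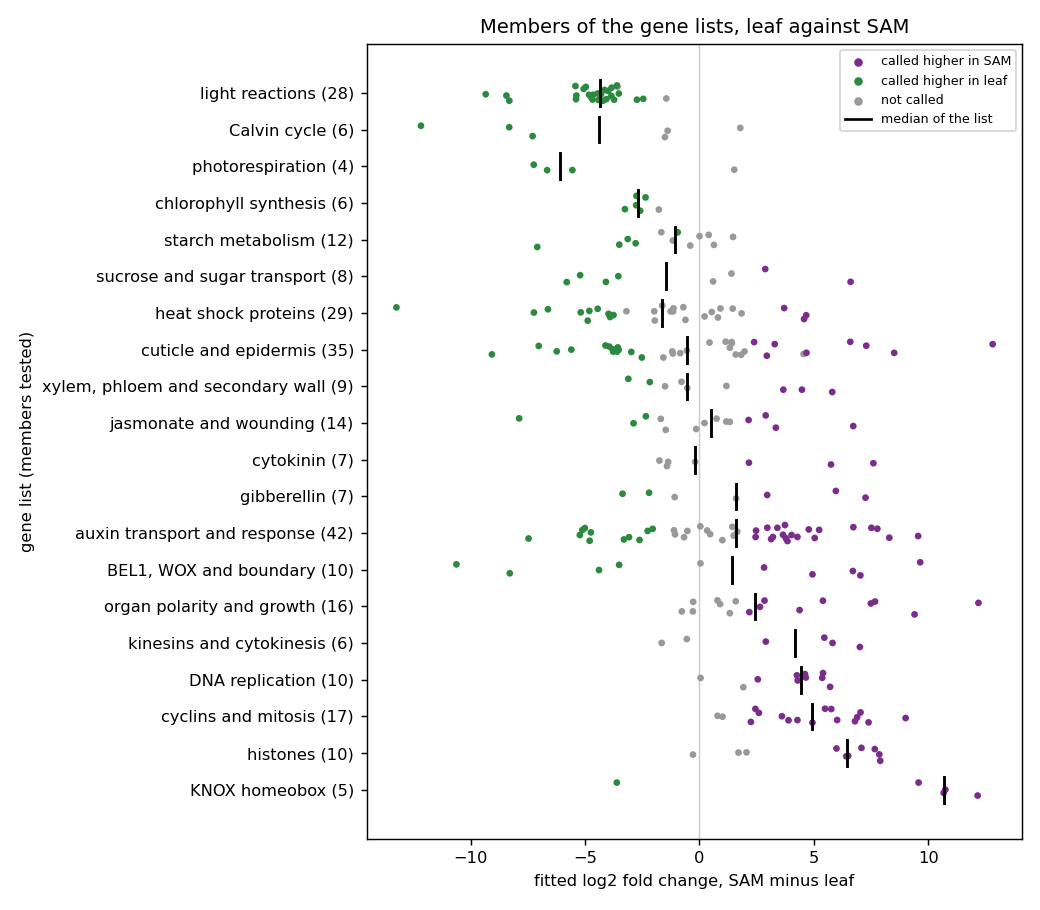
Fitted log2 fold change (SAM minus leaf, x axis) of every tested member of each gene list (y axis, number of members tested in parentheses), with the median of each list as a black line. Light reactions lie to the left of 0, with a median of -4.35; cyclins, DNA replication and histones lie almost wholly to the right, with medians of 4.94, 4.46 and 6.46.

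Photosynthesis genes were higher in leaf. Of 28 members of the light reactions list, 26 were up-regulated in leaf and 0 in SAM, with a median log2 fold change of -4.35. Without the members found only in the leaf and fibrous root table, all 13 left were called, though some may stand in that table as well. Together they held 3.24, 3.10 and 2.87% of FPKM in leaf and 0.195, 0.244 and 0.193% in SAM, a difference in means of 2.86 percentage points. The lowest leaf library was more than 10 times the highest SAM library, and the exact two-sided permutation test gave p = 0.1, the smallest value that 3 libraries against 3 allow. The plastocyanin gene Manes.05G142000, whose protein carries electrons to photosystem I, was at 5574, 7400.0 and 7200.5 FPKM in leaf and at 171, 226 and 160.1 in SAM, 36.2-fold lower. Photosystem I subunit G, Manes.01G006400, was at 3919, 3812 and 3207 FPKM in leaf and at 203, 202 and 175 in SAM. Neither gene was near 0 in the apex, where the summed level of the list was 1852 to 2217 FPKM.

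The 2 members without a call, named here because they stood outside the pattern, were Manes.01G088500 and Manes.02G204700. The chlorophyll a/b-binding family gene Manes.01G088500 had means of 52.3 FPKM in leaf and 17.7 in SAM, a 2.95-fold difference without overlap. The photosystem II gene Manes.02G204700 had at most 6.58 FPKM in a leaf library and no fragment in SAM.

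In the Calvin cycle, 3 of 6 members were up-regulated in leaf and 0 in SAM, with a median log2 fold change of -4.40. Without the members annotated only by the leaf and fibrous root comparison, 1 of 4 was up-regulated in leaf, against 24.8% of the loci listed in another of the tables. The Rubisco small chain gene Manes.01G011500 had 18972, 29168 and 35377 FPKM in leaf and 178, 148 and 174 in SAM, with a log2 fold change of -7.29 ± 0.39. The small chain gene Manes.05G137400 had 10502, 21222 and 20774 FPKM in leaf and 53.4, 50.6 and 50.3 in SAM. In both, leaf library 1 was the lowest leaf library and the SAM libraries were close together. The third small chain locus, Manes.06G023400, without a call, was at 9.36, 4.98 and 7.29 FPKM in leaf and at 35.2, 25.8 and 23.0 in SAM, the opposite order at a low level. It was called in SAM after the libraries were rescaled, and also without leaf library 1, SAM library 2 or SAM library 3. Rubisco activase Manes.09G095000 and the phosphoribulokinase/uridine kinase gene Manes.06G077500 were the other 2 without a call, at 2.83-fold and 3.41-fold higher means in leaf.

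Photorespiration recovers carbon that Rubisco loses when it reacts with oxygen. Of its 4 tested members 3 were up-regulated in leaf, or 1 of 2 without those taken only from the leaf and fibrous root table. Hydroxypyruvate reductase Manes.04G076300, a peroxisomal enzyme of this cycle, was at 1128, 809 and 962 FPKM in leaf and at 21.1, 16.6 and 19.8 in SAM. Alanine:glyoxylate aminotransferase Manes.02G141600 was at 508, 326 and 439 FPKM in leaf and at 4.16, 4.4 and 3.18 in SAM. Both were separated from SAM in every library, and the fourth member, Manes.09G114900, was at 1.89 FPKM in leaf and 5.01 in SAM on average and was called in SAM after rescaling.

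Of 6 members of the chlorophyll synthesis list 5 were up-regulated in leaf and 0 in SAM, with a median log2 fold change of -2.67. The count was 1 of 2 without the members taken only from the leaf and fibrous root table, and 3 of 6 after the libraries were rescaled to the same FPKM sum. Protochlorophyllide oxidoreductase A, Manes.03G113300, the light-dependent step of the pathway, was at 451, 589 and 630.4 FPKM in leaf and at 118, 97.6 and 87.1 in SAM, 5.51-fold lower. Glutamate-1-semialdehyde aminomutase, Manes.06G122800, which forms the first precursor of the ring, was at 235, 465 and 449 FPKM in leaf and at 61.8, 59.8 and 55.9 in SAM, 6.48-fold lower. Both remained well above 1 FPKM in the meristem, and neither passed the 4-fold limit after rescaling.

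The carbonic anhydrases, a family set up after its values were seen, had 4 tested members and all 4 were up-regulated in leaf, with a median log2 fold change of -11.00. Beyond both carbonic anhydrase 1 genes, beta carbonic anhydrase 4, Manes.13G029900, was at 247, 183 and 224 FPKM in leaf and at 0.425, 0 and 0.364 in SAM. Alpha carbonic anhydrase 1, Manes.09G054900, was at 135, 99.7 and 131 FPKM in leaf and at 3.65, 5.65 and 4.7 in SAM.

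Sucrose genes were called in both directions. Of 8 tested members of the sucrose list, 4 were up-regulated in leaf and 2 in SAM. Sucrose synthase 4, Manes.03G044400, which cleaves sucrose in tissues that import it, was at 5.32, 7.54 and 4.59 FPKM in leaf and at 491, 610.2 and 609.8 in SAM, with a log2 fold change of 6.61 ± 0.46. Sucrose synthase 3, Manes.01G221900, overlapped between the tissues at 76.0, 22.7 and 17.5 FPKM in leaf and 75.5, 64.2 and 60.4 in SAM. Both annotated sucrose phosphate synthase loci tested, which act in sucrose synthesis, were up-regulated in leaf: Manes.15G055400 was 50.0-fold and Manes.02G203000 40.8-fold higher there. These last genes were chosen after their values were seen.

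Of 12 tested starch genes 5 were up-regulated in leaf and 0 in SAM, with a median log2 fold change of -1.05. The large subunit 1 of ADP-glucose pyrophosphorylase, Manes.03G182100, which makes the precursor of starch, was at 244, 248 and 262 FPKM in leaf and at 1.47, 1.14 and 1.93 in SAM, on a merged locus that it shares with Manes.03G182200. Starch branching enzyme 2.2, Manes.08G022400, was at 181, 199 and 136 FPKM in leaf and at 45.2, 48.9 and 41.3 in SAM, 3.81-fold lower and without a call. It lies in the same merged locus as a growth-regulating factor gene (chromosome 8, 2064303 to 2083856), so the fragments of the 2 genes may have been divided between them.

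Nitrate and ammonium transporters, likewise grouped after their values were seen, were up-regulated in leaf in 6 of 8 tested members and in SAM in 1. Nitrate transporter 1.7, Manes.05G095700, which loads nitrate into the phloem of leaves in Arabidopsis, was at 33.0, 25.0 and 81.2 FPKM in leaf and at 0.0924, 0.185 and 0 in SAM. Ammonium transporter 1;1, Manes.03G156400, was at 27.3, 19.5 and 15.3 FPKM in leaf and at 1.3, 2.63 and 1.12 in SAM.

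Heat shock proteins are chaperones made in large amounts in warmed or wounded tissue, and in this list 1 library decided the leading gene. Summed over the list, leaf library 1 held 5193 FPKM, leaf libraries 2 and 3 held 1228 and 1472, and SAM libraries held 258 to 378. Heat shock protein 21, Manes.01G042200, a chloroplast chaperone, was at 3728, 0.695 and 1.93 FPKM in leaf and at 0.304, 0 and 0 in SAM. Its log2 fold change of -13.24 ± 3.16 (adjusted p = 0.000662, edgeR) became -3.20 without leaf library 1, with adjusted p = 0.457. Chloroplast heat shock protein 70-2, Manes.07G024700, which takes part in protein import and folding in plastids, did not share this pattern, at 359, 518 and 629 FPKM in leaf and 32.2, 38.3 and 35.1 in SAM.

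Of 29 tested members 11 were up-regulated in leaf and 3 in SAM. Without leaf library 1 the counts were 9 in leaf and 5 in SAM of 25 tested. The 3 in SAM were heat shock protein 90.1 Manes.02G017200, HSP70-interacting protein 1 Manes.02G034400 and heat shock protein 18.2 Manes.04G138600, with 2.55, 14.9 and 1.41 FPKM on average in SAM.

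**Figure D3:**
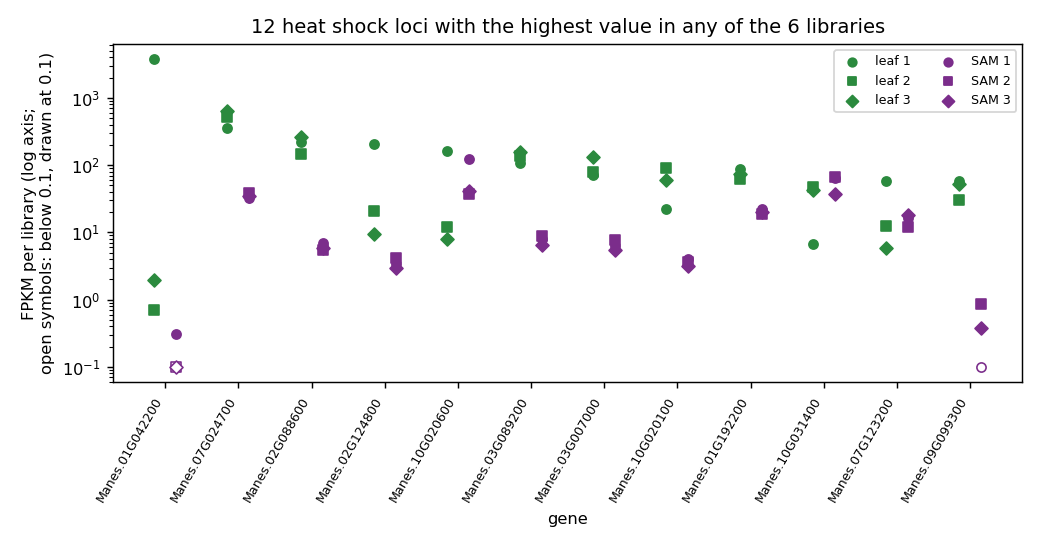
FPKM per library on a log axis for the 12 heat shock loci with the highest value in any of the 6 libraries, with a separate symbol for each of the 3 libraries of leaf and SAM. Leaf library 1 lies above leaf libraries 2 and 3 at several loci, most of all at Manes.01G042200 (3728 against 0.695 and 1.93), and below them at Manes.07G024700 (359 against 518 and 629).

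Genes of jasmonate and wounding, a hormone pathway that responds to cutting, were called in both directions, 4 of 14 in SAM and 3 in leaf, with a median log2 fold change of 0.49. TIFY domain protein 8, Manes.16G067800, was at 3.45, 7.97 and 2.88 FPKM in leaf and at 46.3, 47.4 and 45.6 in SAM. Allene oxide synthase, Manes.12G072100, an enzyme that makes the hormone, was at 51.7, 56.1 and 35.9 FPKM in leaf and at 16.4, 15.1 and 17.6 in SAM, 2.92-fold lower. The WRKY family of stress-responsive transcription factors, added after its values were seen, had 10 of 24 tested members up-regulated in leaf and 5 in SAM. WRKY33, Manes.02G189600, a defence regulator in Arabidopsis, was at 63.2, 38.4 and 64.6 FPKM in leaf and at 0.501, 0.333 and 1.28 in SAM. WRKY70, Manes.08G170600, was at 335, 226 and 371 FPKM in leaf and at 97.1, 15.1 and 19.4 in SAM, where SAM library 1 was the highest and still below every leaf library.

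The KNOX list, set as the marker of SAM against leaf, had 5 tested members, 4 up-regulated in SAM and 1 in leaf. Its median log2 fold change was 10.68, or 9.58 when the gene without a leaf fragment is held at its bound. The gene annotated as KNOX/ELK, Manes.17G027300 (chromosome 17, 13547348 to 13552895), was at 0, 0.107 and 0 FPKM in leaf and at 95.0, 77.9 and 88.0 in SAM. Leaf held 1 fragment of it, which gave a ratio of 2084 (exact interval 373 to 82351) and a log2 fold change of 10.68 ± 0.64. The KNOTTED-like gene Manes.05G184900 (chromosome 5, 25387594 to 25394220) was at 0, 0.107 and 0.208 FPKM in leaf and at 106, 102 and 84.8 in SAM, a ratio of 1988 (exact interval 549.8 to 16419.6). In both genes every SAM library was above 75 FPKM and every leaf library was under 1, so that the labels of all 6 libraries matched this marker as well as the light reactions list. Neither gene was confined to SAM in the series. Manes.05G184900 had means of 129 FPKM in stem and 173 in storage root, against 97.6 in SAM. Manes.17G027300 had means of 61.8 FPKM in friable embryogenic callus and 25.2 in stem, against 86.9 in SAM.

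Both genes annotated as KNAT6, which in Arabidopsis acts in the meristem and at organ boundaries, were also near 0 in leaf. Manes.08G111000 (chromosome 8, 27639556 to 27644330) was at 0, 0 and 0.102 FPKM in leaf and at 32.3, 38.9 and 37.8 in SAM. Manes.09G176900 (chromosome 9, 28652929 to 28657629) had no leaf fragment and was at 30.9, 31.8 and 37.7 FPKM in SAM, at least 426-fold higher. The gene annotated as KNAT3, a class II member, had the opposite order. Manes.14G138700 (chromosome 14, 12425245 to 12430562) was at 90.1, 75.1 and 93.0 FPKM in leaf and at 6.08, 6.25 and 7.4 in SAM, 13.1-fold lower with a log2 fold change of -3.61 ± 0.25.

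**Figure D4:**
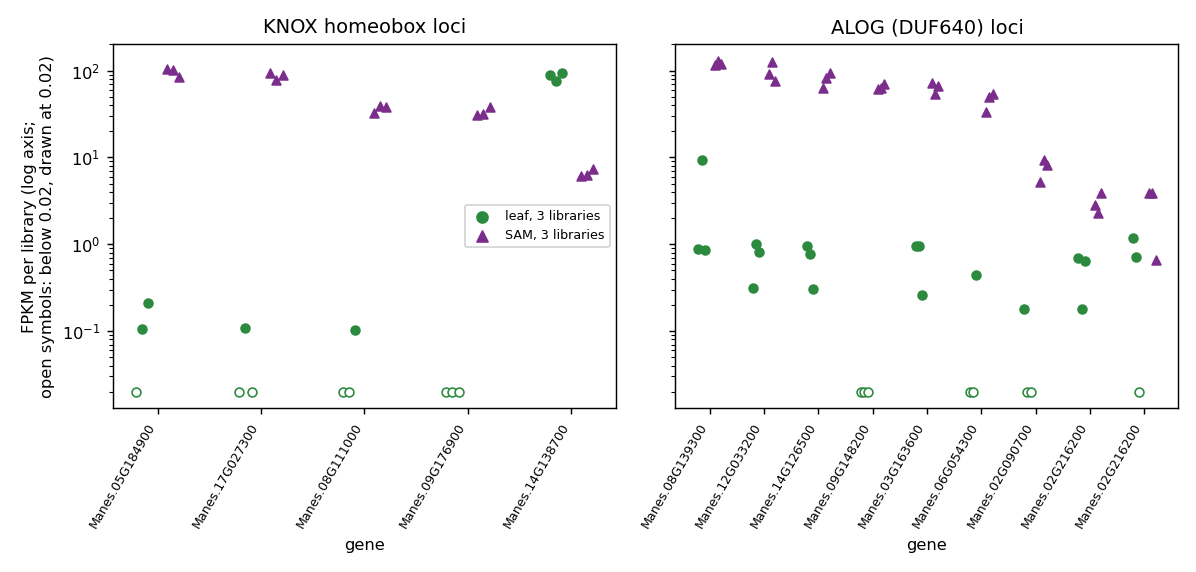
FPKM per library on a log axis for the KNOX homeobox loci (left) and the DUF640 (ALOG) loci (right), with circles for 3 leaf and triangles for 3 SAM libraries; open symbols are values under 0.02, drawn at 0.02. The 4 KNOX loci called in SAM lie between 30.9 and 106 FPKM there, whereas Manes.14G138700 lies between 75.1 and 93.0 in leaf.

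KNOX proteins act as pairs with homeodomain proteins of the BEL1 (POX) family. In the list of BEL1, WOX and boundary genes, 5 of 10 tested members were up-regulated in SAM and 4 in leaf, so that its direction was mixed. The POX genes with the highest levels were higher in leaf. Manes.02G018700 was at 105, 95.6 and 101 FPKM in leaf and at 0.476, 0.135 and 0.23 in SAM, and Manes.01G058700, named after its values were seen, was at 97.9, 68.3 and 78.8 in leaf and 0.136, 0 and 0 in SAM. BEL1-like homeodomain 1, Manes.09G045600, was at 91.4, 62.3 and 105 FPKM in leaf and at 3.75, 3.7 and 4.22 in SAM. All 3 were without overlap.

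The members up-regulated in SAM were lower in level. They were WOX2 Manes.04G033600, WOX13 Manes.05G124300, WOX11 Manes.08G151900 and the LOB domain genes Manes.06G108700 and Manes.12G000100, with means between 1.73 and 10.9 FPKM in SAM. With a limit of 10 FPKM the list had 1 call in SAM of 5 tested, and with no limit on mean FPKM 8 of 18. WOX and LOB proteins are transcription factors that act in stem cell niches and at organ boundaries. WOX1, Manes.06G007300, which acts in the blade margin of young leaves in Arabidopsis, was at 7.23, 4.03 and 6.74 FPKM in leaf and at 0.425, 0.494 and 0.538 in SAM.

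The genes annotated as proteins of unknown function with a DUF640 domain belong to the ALOG family, named after LIGHT-SENSITIVE HYPOCOTYLS of Arabidopsis and G1 of rice, whose members act in meristems and at organ boundaries. This family was grouped after its values were seen. All 9 tested loci were up-regulated in SAM, against 25.9% of all annotated loci tested, with a median log2 fold change of 6.86. In 8 of the 9 the tissues did not overlap, against 81.5% of all annotated loci tested. Manes.09G148200 (chromosome 9, 26563903 to 26564479) had no leaf fragment and was at 61.1, 62.6 and 69.5 FPKM in SAM, at least 236-fold higher. Manes.08G139300 was at 0.874, 9.22 and 0.858 FPKM in leaf and at 116, 131 and 119.6 in SAM, with leaf library 2 higher than the other leaf libraries. Manes.12G033200 was at 0.312, 1.004 and 0.804 FPKM in leaf and at 91.5, 124 and 74.9 in SAM. The summed level of the family was 448 to 519 FPKM in SAM and 3.49 to 12.9 in leaf. At such leaf levels most of the loci passed the limit of 1 FPKM only through SAM. Their shared direction was therefore largely set by the limit and by the choice of the family.

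Of 16 tested genes of organ polarity and growth, 9 were up-regulated in SAM and 0 in leaf. The 9 consisted of all 8 growth-regulating factor (GRF) genes tested and 1 TCP gene. GRF proteins promote cell proliferation in young leaves of Arabidopsis, and TCP proteins control growth of organs. GRF4, Manes.08G022300, was at 4.81, 6.2 and 3.24 FPKM in leaf and at 127, 139.8 and 147 in SAM, a ratio of 29.0. It shares a merged locus with starch branching enzyme 2.2 and its fragment counts differed less, with a log2 fold change of 2.65 ± 0.23, so that the size of its difference is uncertain. A second gene annotated as GRF4, Manes.09G059500, which shares a merged locus with another starch branching enzyme gene (chromosome 9, 7914806 to 7937258), was at 0.381, 0 and 0 FPKM in leaf and at 109, 115 and 109 in SAM. GRF5, Manes.11G020200, chosen after its values were seen because no other locus with coordinates at hand overlaps it (chromosome 11, 1898456 to 1900597), had no leaf fragment and 36.5, 31.6 and 37.0 FPKM in SAM, at least 443-fold higher.

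YABBY genes, which mark the lower side of lateral organs in Arabidopsis, were not called in either direction. Manes.04G064600 was at 26.6, 21.7 and 28.6 FPKM in leaf and 16.0, 23.2 and 21.4 in SAM, and Manes.05G048000 was 2.33-fold higher in SAM. Both were named after their values were seen. Of 5 tested CYP78A genes, grouped after their values were seen, 4 were up-regulated in SAM and 1 in leaf. CYP78A10, Manes.06G082700, was at 10.3, 7.6 and 13.3 FPKM in leaf and at 108, 97.9 and 97.0 in SAM.

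Genes of dividing cells were higher in SAM. Of 17 members of the cyclin and mitosis list 15 were up-regulated in SAM and 0 in leaf, with a median log2 fold change of 4.94. Cyclin D3;1, which drives entry into the cell cycle, was represented by Manes.S050700 at 7.92, 8.93 and 13.0 FPKM in leaf and 276, 298 and 272 in SAM. A second D3;1 gene, Manes.07G076800, was at 3.3, 1.54 and 3.06 FPKM in leaf and at 131, 139 and 116 in SAM. The 2 members without a call were D-type cyclins with a modest difference, Manes.05G177400 at 1.9-fold and Manes.12G113400 at 1.58-fold. The 5 cyclins of types A1 and B were under 1 FPKM in every leaf library. Cyclin A1;1, Manes.02G166800, chosen after its values were seen, was at 0.0641, 0.123 and 0 FPKM in leaf and at 31.4, 37.7 and 46.6 in SAM.

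In DNA replication, 8 of 10 members were up-regulated in SAM and 0 in leaf, with a median log2 fold change of 4.46. Proliferating cell nuclear antigen, the sliding clamp of DNA polymerase, was at 2.26, 2.89 and 6.17 FPKM in leaf and at 122, 149 and 149 in SAM for Manes.01G165500. For Manes.02G123000 it was at 3.18, 2.53 and 5.04 FPKM in leaf and at 121, 149 and 141 in SAM. The 2 genes were nearly equal in level and in difference, 37.2-fold and 38.2-fold.

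Histones package DNA and are made mainly during DNA synthesis. Of 10 tested histone genes 7 were up-regulated in SAM and 0 in leaf, with a median log2 fold change of 6.46. Among those without a call were the 2 histone genes with the highest mean levels in leaf and SAM, H4 and H1-3. Histone H4, Manes.04G032600, was at 457, 335 and 268 FPKM in leaf and at 913, 1751 and 1517 in SAM, 3.95-fold higher and just under the limit. Without leaf library 1 or without SAM library 1 it passed the limit, and the list then had 8 calls. Linker histone H1-3, Manes.01G144600, overlapped between the tissues, at 1512, 460.2 and 252 FPKM in leaf and 528, 716 and 467 in SAM, where leaf library 1 was again the highest. Its log2 fold change of -0.28 ± 0.51 changed sign without that library and after the libraries were rescaled. The third member without a call, histone H2A 11 Manes.06G051000, overlapped as well, at a mean of 4.38 FPKM in leaf and 15.3 in SAM.

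Of 6 tested kinesins and cytokinesis genes, which build the mitotic spindle and the new cell wall, 4 were up-regulated in SAM and 0 in leaf. The kinesin Manes.03G133900 was at 0.137, 0.306 and 0.125 FPKM in leaf and at 21.9, 27.4 and 26.1 in SAM. Microtubule-associated protein 70-2, Manes.08G060700, was at 53.4, 48.1 and 59.4 FPKM in leaf and at 36.7, 41.9 and 35.5 in SAM, 1.41-fold lower, a difference that turned to a log2 fold change of 0.11 after the libraries were rescaled to the same FPKM sum.

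Auxin transport and response, the largest list, had 20 of 42 tested members up-regulated in SAM and 11 in leaf, with a median log2 fold change of 1.58. The count in leaf was 7 after the libraries were rescaled to the same FPKM sum, and also 7 with the ratio of mean FPKM + 1. Its members were thus called in both directions, among the SAUR genes as well as among the efflux carriers. Auxin response factor 11, Manes.05G021700, a transcription factor of the auxin response, was at 9.85, 6.88 and 5.54 FPKM in leaf and at 119.7, 156 and 143 in SAM. The SAUR gene Manes.S045900 was at 13.9, 13.6 and 16.5 FPKM in leaf and at 94.9, 139 and 127 in SAM. SAUR genes of the same stretch of chromosome 4 differed in direction. Manes.04G081900 (chromosome 4, 21933236 to 21933659), chosen after its values were seen, had 9.13, 9.92 and 3.47 FPKM in leaf and no fragment in SAM, whereas Manes.04G082100 had no fragment in leaf.

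Of 7 tested cytokinin genes, 3 were up-regulated in SAM and 0 in leaf, at low levels and with a median log2 fold change of -0.19. Summed over the list, leaf held 8.78 to 11.1 FPKM and SAM 8.41 to 11.7. With the ratio of mean FPKM + 1 the count in SAM was 1, and at a limit of 10 FPKM 0 members were tested. Leaf had 1 call without leaf library 2, SAM library 1 or SAM library 2. Histidine-containing phosphotransfer factor 5, Manes.09G059100, a relay of the cytokinin signal, had no leaf fragment and 2.66, 3.23 and 3.72 FPKM in SAM. The histidine kinase 1 gene Manes.02G106100 was at 3.31, 2.48 and 3.34 FPKM in leaf and at 2.25, 2.95 and 2.15 in SAM, which overlap. It entered the list by the words of its annotation, which do not show a role in cytokinin signalling. Of 7 tested gibberellin genes, 3 were up-regulated in SAM and 2 in leaf. The gibberellin-regulated gene Manes.12G109900 was at 0, 1.43 and 1.43 FPKM in leaf and at 4.45, 12.2 and 5.12 in SAM, and gibberellin 3-oxidase 1 Manes.11G050500, which makes active gibberellin, had means of 5.68 in leaf and 2.42 in SAM without a call.

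Epidermis genes, which both organs should hold, were called in both directions: of 35 tested members 8 were up-regulated in SAM and 13 in leaf, with a median log2 fold change of -0.55. After the libraries were rescaled to the same FPKM sum 13 were up-regulated in SAM. Neighboring lipid transfer genes differed in direction. Manes.01G112700 was at 9253, 4928 and 6674 FPKM in leaf and at 461, 385 and 446 in SAM, whereas its neighbor Manes.01G112600 was at 1267, 1177 and 1071 in leaf and 2317, 2775 and 3319.8 in SAM, a 2.39-fold difference that passed the limit only after rescaling or with a ratio above 2. Protodermal factor 1, a cell wall protein of young epidermis in Arabidopsis, was annotated at 2 tested loci that differed in direction. Manes.01G128300 was 7.27-fold higher in SAM and Manes.02G085300 fell from 9.88 FPKM in leaf to 0.122 in SAM. These 2 genes were chosen after their values were seen.

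Among genes with a START lipid-binding domain, grouped after their values were seen, 6 of 10 tested were up-regulated in SAM and 2 in leaf. The homeobox-leucine zipper gene Manes.04G133100 was at 8.2, 10.1 and 9.4 FPKM in leaf and at 36.2, 44.6 and 44.3 in SAM. Manes.07G099200, which carries a pleckstrin homology domain instead of a homeobox, was at 190.0, 147 and 179 FPKM in leaf and at 1.57, 1.49 and 0.8 in SAM.

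Of 9 tested genes of xylem, phloem and secondary wall, 3 were up-regulated in SAM and 2 in leaf, and the summed level was 172 to 194 FPKM in leaf and 60.8 to 75.1 in SAM. Phloem protein 2-A12, Manes.02G027400, was at 107, 101 and 131 FPKM in leaf and at 31.0, 20.5 and 22.2 in SAM. It lost its call after the libraries were rescaled, at a log2 fold change of -1.52, and the list then had 1 call in leaf. The second gene of this name, Manes.01G066600, was 3.13-fold lower in SAM without a call. The receptor kinase gene ERECTA-like 1, Manes.06G138900, which restrains stomatal formation in Arabidopsis and was the 1 tested member of the stomatal list, was at 3.55, 2.75 and 1.64 FPKM in leaf and at 39.5, 37.6 and 29.3 in SAM. Arabinogalactan proteins of the cell surface, also grouped after their values were seen, had 5 of 12 tested members up-regulated in SAM and 0 in leaf, or 8 in SAM after rescaling and 3 with the ratio of mean FPKM + 1. Arabinogalactan protein 12, Manes.09G140700, was at 19.2, 42.1 and 49.6 FPKM in leaf and at 201, 193 and 165 in SAM, and arabinogalactan protein 26, Manes.05G068100, was 3.48-fold lower in SAM without a call, on a merged locus shared with Manes.05G068000.

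The same genes were then read in 2 pairs of tissues that share no library with leaf and SAM. The first pair, lateral bud and midvein, was prepared with the same RNA kit for both tissues. Here 1895 loci (7.89% of 24031 tested) were up-regulated in lateral bud and 2183 (9.08%) in midvein. Lateral bud and SAM calls shared 1311 loci, 38.4% of the SAM calls and 69.2% of the bud calls. Leaf and midvein calls shared 1529 loci, 39.2% of the leaf calls and 70.0% of the midvein calls. Loci called in opposite directions numbered 33 (SAM and midvein) and 24 (leaf and lateral bud).

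The second pair, root apical meristem (RAM) and fibrous root, differed in RNA kit and library preparation in the same way as SAM and leaf. Here 2468 loci (10.3% of 24053 tested) were up-regulated in RAM and 2944 (12.2%) in fibrous root. SAM and RAM calls shared 1051 loci, 30.8% of the SAM calls and 42.6% of the RAM calls, while 282 loci were called in SAM and in fibrous root. Leaf and fibrous root calls shared 831 loci, 21.3% of the leaf calls, and 184 loci were called in leaf and in RAM. Calls in the direction of the meristem were shared with both pairs. How far the handling contributed to the leaf and SAM calls was not tested.

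The list counts in these pairs are to be read against all annotated loci tested in leaf and SAM. Of these, 3338 were tested in the bud pair, with 473 up-regulated in lateral bud and 580 in midvein. In the RAM pair 3113 were tested, with 467 up-regulated in RAM and 612 in fibrous root. The annotation tables of leaf and of storage root, each against fibrous root, also selected loci on the fibrous root libraries. No list was tested against these shares. Of the light reactions genes, 20 of 27 tested were up-regulated in midvein over lateral bud and 0 in bud. Of the KNOX genes, 4 of 5 tested were up-regulated in lateral bud over midvein, and 0 of 3 in RAM over fibrous root. All 9 ALOG loci were tested in the bud pair and 2 were up-regulated in bud, whereas 0 of 8 were up-regulated in RAM and 5 in fibrous root. Cyclins and mitosis genes were up-regulated in 14 of 17 in RAM and in 10 of 17 in lateral bud. DNA replication genes were up-regulated in 9 of 10 in RAM and in 2 of 10 in lateral bud, and histones in 8 of 10 in each. Lateral bud library 2 stood apart. Summed FPKM of DNA replication was 246, 47.4 and 211 in lateral bud libraries 1, 2 and 3, and 45.2 to 62.2 in midvein. For cyclins and mitosis it was 410, 79.3 and 299 in lateral bud and 55.2 to 68.9 in midvein. How far this library lowered the bud counts was not tested. In the RAM pair, RAM library 1 held 502 FPKM of DNA replication genes, against 302 and 258 in RAM libraries 2 and 3. Fibrous root library 1 held 1571 FPKM of heat shock proteins, against 314 and 311 in fibrous root libraries 2 and 3. The difference between the 2 log2 fold changes, SAM minus leaf against RAM minus fibrous root, was tested for the genes named from the KNOX and dividing-cell lists. It passed an adjusted p of 0.05 in 10 of 11 genes tested in both pairs (90.9%), against 55.7% of all loci and 69.1% of annotated loci, so that a difference between the pairs was common.

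**Figure D5:**
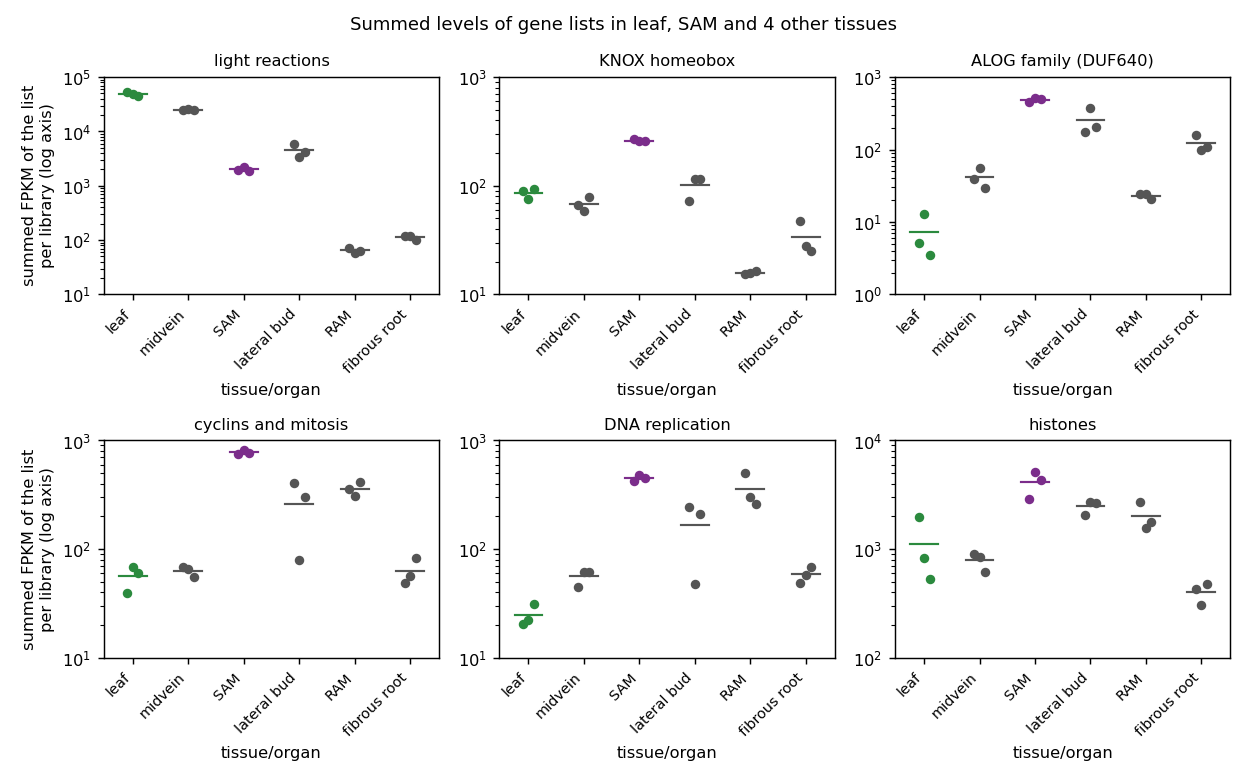
Summed FPKM of 6 gene lists per library (log axis) in leaf, midvein, SAM, lateral bud, RAM and fibrous root, with 3 points and the mean as a line for each tissue. KNOX genes sum to 256 to 270 FPKM in SAM and to 15.4 to 16.3 in RAM, whereas DNA replication genes sum to 420 to 477 in SAM and 258 to 502 in RAM. The KNOX sum includes Manes.14G138700, which was higher in leaf than in SAM. It held 86.1 of the mean sum of 86.3 FPKM in leaf.

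Single genes showed this in their levels. The KNOX gene Manes.17G027300 was at 3.46 to 10.1 FPKM in lateral bud, and at most 0.107 in midvein, 0.281 in RAM and 0.298 in fibrous root. Manes.05G184900 was at 26.2 to 52.8 FPKM in lateral bud, 10.2 to 12.5 in RAM and 6.3 to 28.3 in fibrous root, so that among the KNOX genes called in SAM it alone reached 10 FPKM in a RAM or fibrous root library. The lipid transfer superfamily gene Manes.01G078300 was at 576 to 1039.6 FPKM in RAM, as high as in SAM, and CYP78A7 Manes.12G142700 was at 171 to 263 FPKM in lateral bud and at most 0.31 in RAM. Carbonic anhydrase 1 Manes.15G167500 was at 4761 to 5196 FPKM in midvein, between the levels of leaf and SAM, and at most 7.19 in lateral bud.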

How the data were processed

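RNA-seq of 32 libraries was read from deposited tables with 2 values per locus and library: FPKM and a raw fragment count. Per the labels and the methods of the study, the authors used Trimmomatic 0.32 for cleaning and TopHat2 for mapping to cassava AM560-2 v6.1 (version 2.0.10 in the processing notes, another in the methods). They merged Cufflinks 2.2.1 models and computed FPKM with Cuffdiff 2.2.1. The deposited fragment counts are estimated counts, of which 82.0% of values above 0 were whole within 0.001, and were rounded for testing. The methods state that transcripts under 10 reads were set to 0, but 4243 to 4860 values above 0 and under 10 fragments stood in each of the 6 libraries. Strand was not given in the sources used here, so genes that overlap or have close copies are uncertain.

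edgeR 4.0.16 (R 4.3.3) was fitted to all 32 libraries with TMM factors and 11 tissue means, and the contrast was SAM minus leaf. Named loci whose mean reached 1 FPKM in leaf or SAM were tested. A call needed an adjusted p under 0.05 and a ratio of mean FPKM above 4, the fold limit of the study. SE was derived from the F statistic, as the size of the log2 fold change over the root of F. Where a tissue had no fragment it was set to 3 fragments over its libraries, and with 1 to 3 fragments an exact 95% interval was given. Bounds and intervals cover counting error only.

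Genes named were the 6 per direction with the largest ratio of mean FPKM + 0.1 (single annotated gene, at least 10 FPKM in the higher tissue, no overlap), the 2 per list with the highest mean, and each KNOX gene at 1 FPKM or more. Others are marked as chosen after their values were seen. The members and the 23 lists were chosen with earlier results of these data known, and 7 families were added after values were seen. Lists of cytosolic ribosomal proteins and cyanogenic glucoside genes found 0 annotated members, so neither was described. No gene name matched the RefSeq table, so no sequence or promoter was shown. Gene annotation and coordinates came from supplementary gene tables, whose columns of fold changes and tests by the authors were not used. In simulated counts, 180 of 200 loci changed 8-fold were recovered and 3 of the unchanged loci were called among 21004. Alternatives were DESeq2 1.42.0, limma 3.58.1 on log2(FPKM + 1) and log2(FPKM + 0.1), other scalings, filters and fold limits, each library left out and a replicate block. The replicate numbers were not treated as pairs.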

Additional observations from a re-analysis of the deposited data

Results flagged for a closer look

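For the genes named from the KNOX and dividing-cell lists, the difference between SAM and leaf was set against the difference between RAM and fibrous root, as the difference of the 2 log2 fold changes in the same edgeR fit (a test added after the values were seen, with Benjamini-Hochberg adjustment). Of 11 genes tested in both pairs 10 differed between the shoot and the root pair, and so did 55.7% of the 21652 loci and 69.1% of the 3113 annotated loci tested in both. Among KNOX genes the difference of log2 fold changes was 11.29 for Manes.05G184900 (adjusted p = 8.57e-12), 12.37 for Manes.09G176900 (1.45e-09) and -0.94 for Manes.14G138700 (0.0208). The first 2 had RAM and fibrous root means of 11.7 and 15.8, and 1.29 and 1.59 FPKM. Manes.09G176900 had no leaf fragment, so its fitted value depends on the prior count. Manes.17G027300 and Manes.08G111000 were under 1 FPKM on average in RAM and in fibrous root and were not tested there, so no difference is given for them.

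Among genes of dividing cells the difference was 5.87 for cyclin D3;1 Manes.S050700 (adjusted p = 3.65e-11), which was at 8.41 FPKM in RAM and 16.8 in fibrous root, and 2.46 for the other D3;1 gene Manes.07G076800 (0.0022), which was at 44.1 and 4.73. It was 2.03 and 2.97 for the PCNA genes Manes.01G165500 (0.0224) and Manes.02G123000 (5.14e-05), both up-regulated in RAM as well, and 4.33 for the kinesin Manes.03G133900 (0.00444). Histone H1-3 Manes.01G144600 differed by 3.82 (0.000128), with 14.3 FPKM in RAM and 256 in fibrous root. Microtubule-associated protein 70-2 Manes.08G060700 differed by -2.24 (1.67e-06). Histone H4 Manes.04G032600 was the 1 gene not past the threshold, at -0.84 (0.0904).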

How the results depend on the processing

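The count of 7314 called loci was 7179 to 7341 without any 1 of the 6 libraries (3326 to 3426 in SAM, 3818 to 3979 in leaf), 7192 with DESeq2 and 7388 and 7392 with limma. No locus was called in the opposite direction under any of these settings. With a limit of 10 FPKM 4703 were called (1945 in SAM) of 16141 tested, and with a ratio above 2 there were 11790 (5621 in SAM, 6169 in leaf). Light reactions had 26 calls in leaf without any 1 library, cyclins 14 to 15 in SAM, DNA replication 8 and histones 7 to 8, and 13 of 13 light reactions loci were called when those annotated only by the leaf and fibrous root table were left out. The share of FPKM in light reactions differed by -2.96 to -2.78 percentage points without 1 library.

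With a replicate block, 7081 loci were called in the 6 libraries, 46.6% of them in SAM. Same-numbered leaf and SAM libraries correlated at 0.143, 0.109 and 0.058 in their deviations from the tissue means. Each library correlated best with its own number, a hint from the data only, and the labels give no shared source.

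Of 1231 alternative values for 65 named genes 1208 kept their direction and their side of the threshold. Those that changed sign were Manes.01G144600, at 0.0023 and 0.0029 with limma (pseudocount 1 and 0.1), 0.0897 with the replicate block, 0.41 after rescaling to the same FPKM sum and -0.87 to 0.77 without 1 library, the highest being that without leaf library 1, and, after rescaling, Manes.08G060700 at 0.11 and Manes.02G106100 at 0.47. None of the 3 was called. Rescaling ended the calls of Manes.03G113300, Manes.06G122800 and Manes.02G027400 and added calls of Manes.04G032600 and Manes.01G112600. It also left 1 gibberellin gene called in leaf in place of 2 and gave 5 heat shock proteins in SAM in place of 3. Without the members annotated only by the leaf and fibrous root table, calls in leaf were 5 of 21 for heat shock proteins, 3 of 10 for starch and 2 of 6 for sucrose, and calls in SAM were 2 of 3 for kinesins. The cause was not tested. Genes with few fragments are limited by depth: 3 fragments are 0.161 to 0.315 FPKM at a typical locus.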
